A study of Mus musculus with 40 samples.

Results

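Small leucine-rich proteoglycans (SLRPs) are secreted proteins of the extracellular matrix, and 10 of their genes, decorin (*Dcn*), biglycan (*Bgn*), asporin (*Aspn*), fibromodulin (*Fmod*), lumican (*Lum*), prolargin (*Prelp*), osteomodulin (*Omd*), keratocan (*Kera*), osteoglycin (*Ogn*) and epiphycan (*Epyc*), were followed here in the choroid and retina of laser-treated mice. They were chosen by gene symbol as genes of choroidal and scleral stroma, and all 10 were found among the 54307 genes of the series. Polyadenylated RNA was sequenced from 20 choroids and 20 retinas, 5 of each tissue in each of 4 groups, 3 days after 6 laser burns per eye, a model of choroidal neovascularization (CNV). Choroid libraries came from the lesioned center of the tissue, without its periphery. The libraries of each tissue carry mouse numbers from 1 to 20 in their names, and that equal numbers mark the same animal is read from these names alone. The comparisons ask how endothelial TGFβ signaling and mononuclear phagocytes (MP), the macrophages and microglia, act on the lesioned tissue.

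All mice were on a C57BL/6J background, carried floxed *Tgfbr2* alleles on both chromosomes (*Tgfbr2* fl/fl) and received tamoxifen eye drops at 6 to 7 weeks of age. *Tgfbr2ΔEC* mice also carried *Cdh5-CreERT2*, a tamoxifen-dependent Cre recombinase driven by the endothelial *Cdh5* promoter, while control mice were littermates that lacked it. The groups marked + PLX ate a diet with PLX5622, an inhibitor of the CSF1 receptor that MP need to survive, from the first tamoxifen drop until they were killed. The groups marked – PLX ate control food. The 4 groups are thus control – PLX, *Tgfbr2ΔEC* – PLX, control + PLX and *Tgfbr2ΔEC* + PLX. The levels of *Xist* and of Y-linked genes gave 2, 3, 2 and 4 female mice in them, in this order, with the same answer from both tissues for all 20 mouse numbers.

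SLRP core proteins bind collagen fibrils, set the width and spacing of fibrils and carry chondroitin, dermatan or keratan sulfate chains. *Dcn*, *Bgn* and *Aspn* form class I, *Fmod*, *Lum*, *Prelp*, *Kera* and *Omd* class II, and *Ogn* and *Epyc* class III. In the eye they are best known from the cornea and sclera, where lumican and keratocan keep corneal collagen regular. Decorin, biglycan, asporin and fibromodulin also bind TGFβ, and soluble biglycan and decorin are ligands of Toll-like receptors on macrophages.

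Values are normalized counts, the authors' estimated reads per gene after scaling with DESeq2, and 1 read was worth about 1 normalized count. Numbers of reads given here assume 1 scaling factor per library, which was not tested. The libraries held about 21447879 to 28553430 reads in choroid and 20959033 to 30544579 in retina, so that *Dcn* alone took roughly 2530000 reads over the 20 choroids and *Epyc* 15300. The summed level of 10 photoreceptor genes was 1035428 or more in every retina and 138483 or less in every choroid, and that of 8 genes of the retinal pigment epithelium (RPE) was 173268 or more in every choroid and 18199 or less in every retina, as the labels have it. *Csf1r*, the target of PLX5622 and itself an MP gene, had choroid means of 8411 and 7659 without and 4097 and 3831 with PLX, in control and *Tgfbr2ΔEC* mice. *Tgfbr2*, which Cre deletes from endothelial cells only, ranged from 9836 to 10849 in control – PLX, 8729 to 11303 in *Tgfbr2ΔEC* – PLX, 9434 to 12801 in control + PLX and 10817 to 11999 in *Tgfbr2ΔEC* + PLX choroids. These whole-tissue levels did not separate the genotypes, with a log2 difference of -0.02 ± 0.06 (SE) over both diets and an adjusted p of 0.981 by limma with Benjamini-Hochberg adjustment. In bulk tissue, fewer cells of a type and less RNA per cell cannot be told apart.

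Of the 10 genes, 9 lie in 3 clusters. *Dcn*, *Lum*, *Kera* and *Epyc* share 203.0 kb of chromosome 10. *Prelp* and *Fmod* share 151.1 kb of chromosome 1 with *Optc*, and *Aspn*, *Omd* and *Ogn* share 122.2 kb of chromosome 13 with *Ecm2*, both also SLRP genes. *Bgn* (chrX:72527208-72539541, + strand, GRCm39) stands alone. No gene on the same strand overlaps any of the 10, and the libraries kept the strand. The promoters below belong to the 6 genes that rose with PLX in choroid, and each covers 270 bases before and 30 bases from the start of the canonical GENCODE transcript in GRCm39, 5′ to 3′ on the gene's strand. Capitals mark matches on either strand to any of 5 motifs. The TATA box was searched for as the letters TATAAA. The GC box was searched for as the letters GGGCGG, and the CCAAT box by the letters of its name. The site of the AP-1 factors was searched for as TGANTCA, with N any base. The Smad box was searched for as the letters CAGACA.
Dcn promoter (chr10:97315005-97315304, + strand): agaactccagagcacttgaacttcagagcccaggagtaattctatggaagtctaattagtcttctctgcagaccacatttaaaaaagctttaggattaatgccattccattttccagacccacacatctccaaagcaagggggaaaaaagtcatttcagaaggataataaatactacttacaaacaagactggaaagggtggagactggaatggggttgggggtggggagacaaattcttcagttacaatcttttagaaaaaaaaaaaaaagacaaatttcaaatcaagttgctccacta
Bgn promoter (chrX:72526938-72527237, + strand): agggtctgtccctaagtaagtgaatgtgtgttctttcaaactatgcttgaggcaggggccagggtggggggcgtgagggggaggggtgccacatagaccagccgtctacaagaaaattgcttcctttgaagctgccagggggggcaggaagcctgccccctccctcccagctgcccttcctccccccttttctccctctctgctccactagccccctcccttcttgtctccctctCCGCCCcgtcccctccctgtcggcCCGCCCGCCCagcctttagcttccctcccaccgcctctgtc
Fmod promoter (chr1:133964722-133965021, + strand): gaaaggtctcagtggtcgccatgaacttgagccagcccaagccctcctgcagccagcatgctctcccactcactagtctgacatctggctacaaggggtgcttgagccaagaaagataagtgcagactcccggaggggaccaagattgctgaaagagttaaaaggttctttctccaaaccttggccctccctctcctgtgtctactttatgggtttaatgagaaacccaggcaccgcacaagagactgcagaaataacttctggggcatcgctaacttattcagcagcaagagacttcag
Prelp promoter (chr1:133849123-133849422, - strand): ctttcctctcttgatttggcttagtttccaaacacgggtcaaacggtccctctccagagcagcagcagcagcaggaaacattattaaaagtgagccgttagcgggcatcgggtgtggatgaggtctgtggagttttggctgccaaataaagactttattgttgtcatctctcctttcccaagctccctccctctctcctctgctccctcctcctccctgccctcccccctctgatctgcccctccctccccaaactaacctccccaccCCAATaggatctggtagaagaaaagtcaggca
Omd promoter (chr13:49735668-49735967, + strand): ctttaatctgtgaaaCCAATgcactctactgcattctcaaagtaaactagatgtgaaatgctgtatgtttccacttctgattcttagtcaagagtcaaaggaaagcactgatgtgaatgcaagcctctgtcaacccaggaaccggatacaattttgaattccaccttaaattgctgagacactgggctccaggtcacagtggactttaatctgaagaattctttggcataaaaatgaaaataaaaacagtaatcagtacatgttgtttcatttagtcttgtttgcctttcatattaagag
Ogn promoter (chr13:49761079-49761378, + strand): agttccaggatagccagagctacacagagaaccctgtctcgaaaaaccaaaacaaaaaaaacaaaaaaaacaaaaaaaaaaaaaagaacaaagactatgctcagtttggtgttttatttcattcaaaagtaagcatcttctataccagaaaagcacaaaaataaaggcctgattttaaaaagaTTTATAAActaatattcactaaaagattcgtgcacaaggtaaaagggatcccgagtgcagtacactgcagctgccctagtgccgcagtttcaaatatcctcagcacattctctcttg

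The *Dcn* and *Fmod* windows held none of these letters. *Bgn* held 3 GC boxes, 2 of them overlapping, within 35 bases of its start, *Prelp* a CCAAT box across its start, *Omd* a CCAAT box 255 bases before it, and *Ogn* a TATA box 85 bases before its start that overlaps one on the other strand. Over all 10 genes, 3 promoters held a TATA box and 4 a CCAAT box, against 13.5% and 40.3% of 21756 promoters of protein-coding genes. A GC box was found in 1 of 10 against 41.2% of all, an AP-1 site in 0 against 7.3% and a Smad box in 0 against 18.9%. The windows differed in base composition. *Bgn* was 63.0% G or C, while *Ogn* was 35.7% and *Omd* 37%, and 7 of the 10 lay below the 10th percentile of all promoters, whose median was 53.7%. The neighbours *Prelp* (53.0%) and *Fmod* (51.0%) lay near that median. A match is a description of the letters and not a bound site.

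The abundance of the SLRPs in choroid covered a wide range. By mean normalized counts, not divided by length, *Dcn* was 7th, *Bgn* 26th, *Fmod* 43rd, *Lum* 76th, *Ogn* 126th and *Prelp* 174th of all genes, while *Aspn* had rank 490, *Omd* 3758, *Epyc* 6823 and *Kera* 8253. The 10 genes together made up 1.22% ± 0.193 (SD, n = 20 choroids) of all normalized counts, between 0.891% and 1.54% in single choroids. In retina they made up 0.0045% ± 0.00107 (SD, n = 20 retinas).

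Divided by the length of the canonical transcript, the order of the mean levels in choroid was *Bgn* (29900 ± 3240 normalized counts per kb, SD, n = 20), *Dcn* (21500 ± 4560), *Fmod* (14000 ± 3560), *Lum* (9790 ± 1540), *Ogn* (3180 ± 421), *Prelp* (3080 ± 738), *Aspn* (2920 ± 731), *Omd* (764 ± 202), *Epyc* (310 ± 86.1) and *Kera* (242 ± 83.6). The levels fell into steps. *Lum* lay 3.08-fold above *Ogn* and *Aspn* 3.82-fold above *Omd*, with no overlap between the 20 choroids of one gene and those of the next. Every other pair of neighbours overlapped in range. Within a mouse, *Bgn* was above *Dcn* and *Dcn* above *Fmod* in 20 of 20 choroids, whereas *Ogn* was above *Prelp*, *Prelp* above *Aspn* and *Epyc* above *Kera* in 14 of 20. The canonical *Dcn* transcript is 6.104 kb and that of *Bgn* 2.421 kb, and without division by length *Dcn* was the higher of the pair, at 131161 against 72479 normalized counts. Between mice, *Bgn* varied least, with a coefficient of variation of 10.8%, and *Kera* most, with 34.6%.

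**Figure D1:**
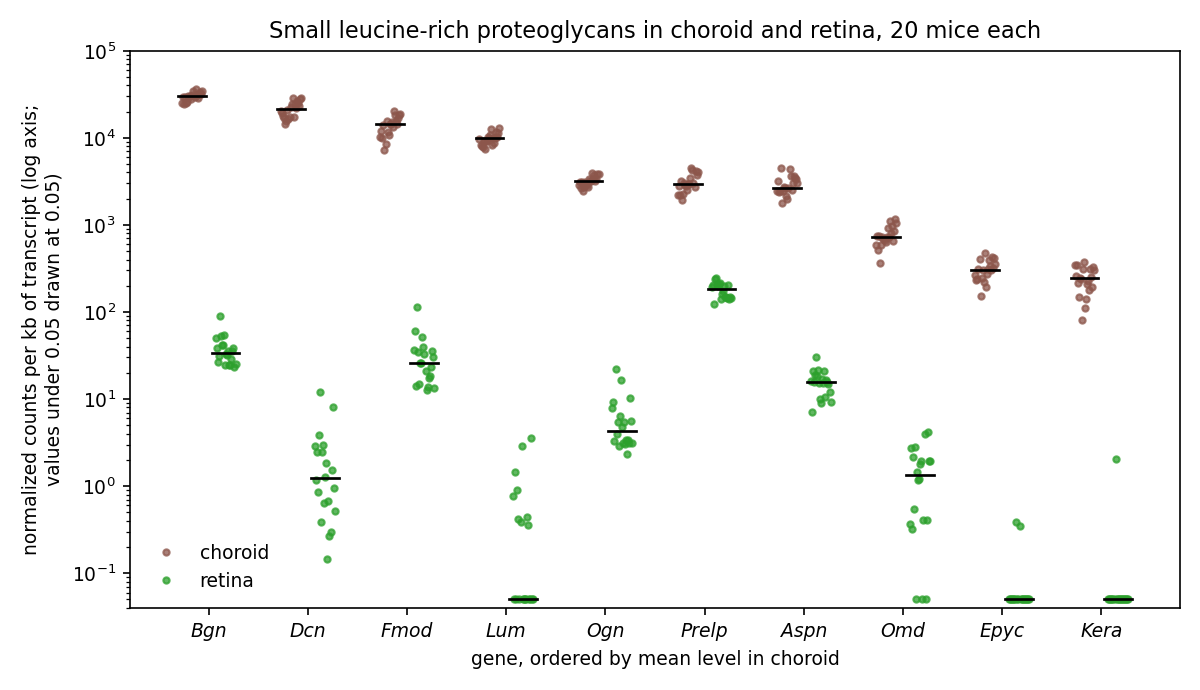
Level of each SLRP gene in normalized counts per kb of transcript (log axis) in the choroid (brown) and retina (green), 20 libraries each, with 1 point per library and a bar at the median. All choroids lie above all retinas for each gene, a separation that was not counted over all genes, and *Prelp*, with a mean of 179 per kb, is the highest in retina.

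Of the 10 genes, 8 reached a mean of 1 normalized count in both tissues, and these 8 were higher in choroid than in retina by limma with Benjamini-Hochberg adjustment over 24317 genes (largest adjusted p 3.76e-28, *Omd*), as were 39.8% of the 21236 genes that reached this mean in both tissues and 40.8% of all genes tested. *Kera* and *Epyc* entered the fit through their choroid levels alone, so that no call is drawn for them. For each of the 10 genes the lowest choroid lay above the highest retina. The share of all genes that separate the tissues in this way was not counted, so nothing particular to the SLRPs is read from it. The ratio of choroid to retina means differed widely. It was 9530 for *Dcn*, 796 for *Bgn*, 507 for *Ogn*, 441 for *Fmod*, 186 for *Aspn* and 17.2 for *Prelp*. *Prelp* was the highest of the 10 in retina, at 774 ± 155 normalized counts (SD, n = 20) and between 527 and 1052. *Fmod*, *Bgn*, *Aspn* and *Ogn* followed in retina at means of 99.2, 91.0, 37.3 and 32.5 normalized counts, above 3 reads in every retina, and *Dcn* at 13.8, with 4 of 20 retinas at or under 3 reads. *Lum* was at or under 3 reads in 17 of 20 retinas, *Omd* in 10 and *Epyc* in 20, and *Kera* was listed above 0 in 1 retina, at 4.67, so that no ratio is given for these 4. Of 7 other SLRP genes with a mean of 1 in both tissues, 3 were higher in choroid as well (*Ecm2*, *Podn* and *Tsku*), 2 were higher in retina and 2 did not pass, whereas 41.4% of genes with this mean in both tissues, and 41.1% of all tested, were higher in retina. Chondroadherin (*Chad*), which entered through choroid alone, was at 5315 ± 2090 in choroid and at or under 3 reads in 19 of 20 retinas, while nyctalopin (*Nyx*), which bipolar cells of the retina need for their response to light, was at 478 ± 122 in retina and 37.4 ± 18 in choroid (SD, n = 20 each).

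The partners of the SLRPs were read against the same shares, 39.8% higher in choroid and 41.4% in retina, and counted where they reached a mean of 1 in both tissues. Of 17 fibrillar collagens and collagen-binding proteins, 16 did (all but *Dpt*), and these 16 were higher in choroid, with a median log2 difference of 7.395. Those with the lowest p were *Col6a2* (4.92), *Col14a1* (10.50), *Col12a1* (7.30) and *Sparc* (4.28). Of 16 genes of collagen crosslinking and processing, 14 were higher in choroid and 1 in retina, with *Loxl1* (6.03) and the collagen chaperone *Serpinh1* (6.78) at the lowest p. Of 21 enzymes of chondroitin and dermatan sulfate synthesis (without *Chst13*), 16 were higher in choroid and 5 in retina, with a median of 1.29. Those with the lowest p included *Dsel* (2.57), a dermatan sulfate epimerase, *Chsy3* (5.29), a chondroitin synthase, and *Chst3*, a chondroitin sulfotransferase that was higher in retina (-3.13). Keratan sulfate synthesis and tyrosine sulfation gave 6 of 8 higher in choroid and 2 in retina (without *Chst5*), the proteases that cleave SLRPs 8 of 9 in choroid (without *Gzmb*), and receptors and ligands 16 of 21 in choroid and 4 in retina.

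With PLX, *Dcn*, *Bgn*, *Fmod*, *Prelp*, *Omd* and *Ogn* rose in choroid. Over both genotypes, 6 of the 10 genes were called higher with PLX and 0 lower at an adjusted p at or under 0.05, whereas 2.07% of the 23619 genes tested were called higher. The median log2 difference over the 10 genes was 0.28, against 0.001 over all genes, and 9 of 10 were above 0. The share of the 10 genes in all normalized counts of the choroid was 1.03% ± 0.087 in control – PLX and 1.10% ± 0.111 in *Tgfbr2ΔEC* – PLX mice, and 1.33% ± 0.137 in control + PLX and 1.43% ± 0.0792 in *Tgfbr2ΔEC* + PLX mice (SD, n = 5 each).

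Decorin binds collagen and TGFβ. Without PLX, *Dcn* was at 125279.9, 117894, 109099.8, 102106 and 87775 normalized counts in the 5 control choroids and at 94229.8, 127764, 99619.9, 105778 and 137529 in the 5 *Tgfbr2ΔEC* choroids. With PLX it was at 149458, 172927, 105180.5, 148428 and 134344 in control and at 163007, 153567, 143428, 172066 and 173732 in *Tgfbr2ΔEC* choroids. All 5 *Tgfbr2ΔEC* + PLX values lay above all *Tgfbr2ΔEC* – PLX values, while in control mice the diets overlapped through mouse 13 (105180.5). Over both genotypes the log2 difference was 0.45 ± 0.10 (SE, 1.37-fold, adjusted p = 0.00463 by limma with Benjamini-Hochberg adjustment). Exact permutation of the diets within genotype gave p = 0.000378, two-sided.

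Biglycan, the nearest relative of decorin, moved less. *Bgn* was at 60755, 70463, 58831, 70858 and 61032 in control – PLX and 62606, 73668, 71424, 73942 and 67428 in *Tgfbr2ΔEC* – PLX choroids. It was at 74820.0, 82582, 70739.9, 87683 and 74484 in control + PLX and 70106, 76626, 80967, 77114 and 83451 in *Tgfbr2ΔEC* + PLX choroids. The ranges of the diets overlapped in both genotypes, and 8 of the 10 + PLX choroids lay above every – PLX choroid. The log2 difference over both genotypes was 0.22 ± 0.06 (SE, 1.16-fold, adjusted p = 0.0418 by limma with Benjamini-Hochberg adjustment, exact permutation p = 0.000567). This call was the least firm of the 6. It was lost in 12 of 20 fits that left out 1 mouse each (mouse 1, 3, 5, 6, 8, 10, 11, 14, 17, 18, 19 or 20, adjusted p = 0.0525 to 0.0883), and with a sex score as covariate (adjusted p = 0.0551). A pseudocount of 5, a test of all genes above 0 and the score of photoreceptor genes as a covariate each lost it as well. Asporin, the remaining class I gene, was not called, and its values are given with those of the other uncalled genes.

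Fibromodulin, a class II protein with keratan sulfate chains that binds fibrillar collagen, had the largest difference of the 10. *Fmod* was at 31549, 37576, 31211, 43403 and 22615 in control – PLX and 26768, 48368, 36628, 33692 and 45167 in *Tgfbr2ΔEC* – PLX choroids. With PLX it was at 45316, 47284, 41915, 63095 and 57734 in control and 49021, 45497, 53251, 56785 and 58416 in *Tgfbr2ΔEC* mice. The diets overlapped in each genotype, through 1 + PLX choroid each. The log2 difference was 0.56 ± 0.12 (SE, 1.48-fold, adjusted p = 0.00427 by limma with Benjamini-Hochberg adjustment, exact permutation p = 0.000252).

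Prolargin, the neighbour of fibromodulin on chromosome 1, binds collagen and, through a basic end, heparan sulfate. *Prelp* was at 9479.5, 12147, 9550.3, 13667 and 8373 in control – PLX and 9809.5, 13209, 12458, 12019 and 11002 in *Tgfbr2ΔEC* – PLX choroids. It was at 12742, 12744, 14904, 19527 and 18417 in control + PLX and 13024, 11653, 17985, 16182 and 17509 in *Tgfbr2ΔEC* + PLX choroids. Mice 14, 15, 18 and 20 were the highest, and the diets overlapped in both genotypes. The log2 difference was 0.465 ± 0.11 (SE, 1.38-fold, adjusted p = 0.00943 by limma with Benjamini-Hochberg adjustment, exact permutation p = 0.00139).

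Osteomodulin and osteoglycin, which lie next to each other on chromosome 13, rose together. Osteomodulin was first found in bone matrix, and osteoglycin takes part in collagen fibril growth. *Omd* was at 1203, 1563, 1070.4, 1550.3 and 759 in control – PLX and 1224, 1501, 1421, 1398 and 1324 in *Tgfbr2ΔEC* – PLX choroids. With PLX it was at 1495, 1926, 1522, 2285 and 1685 in control and 2034, 1345, 1760.2, 2409 and 2183 in *Tgfbr2ΔEC* mice. Mouse 5 was the lowest and mouse 19 the highest, and the diets overlapped. The log2 difference was 0.52 ± 0.13 (SE, 1.44-fold, adjusted p = 0.0117 by limma with Benjamini-Hochberg adjustment, exact permutation p = 0.0011).

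*Ogn* separated the diets completely. It was at 15055, 15892, 13640.5, 16226 and 12709 in control – PLX and 13929, 16018, 15307, 14921 and 13996 in *Tgfbr2ΔEC* – PLX choroids. With PLX it was at 17196, 16622, 16664, 20432 and 17400.5 in control and 19155, 16732, 17590.2, 19966 and 19841 in *Tgfbr2ΔEC* choroids, so that the lowest of the 10 + PLX choroids (16622, mouse 12) lay above the highest of the 10 – PLX choroids (16226, mouse 4). The log2 difference was 0.30 ± 0.06 (SE, 1.23-fold, adjusted p = 0.00221 by limma with Benjamini-Hochberg adjustment). The exact permutation p was 3.15e-05, the smallest that the design allows.

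**Figure D2:**
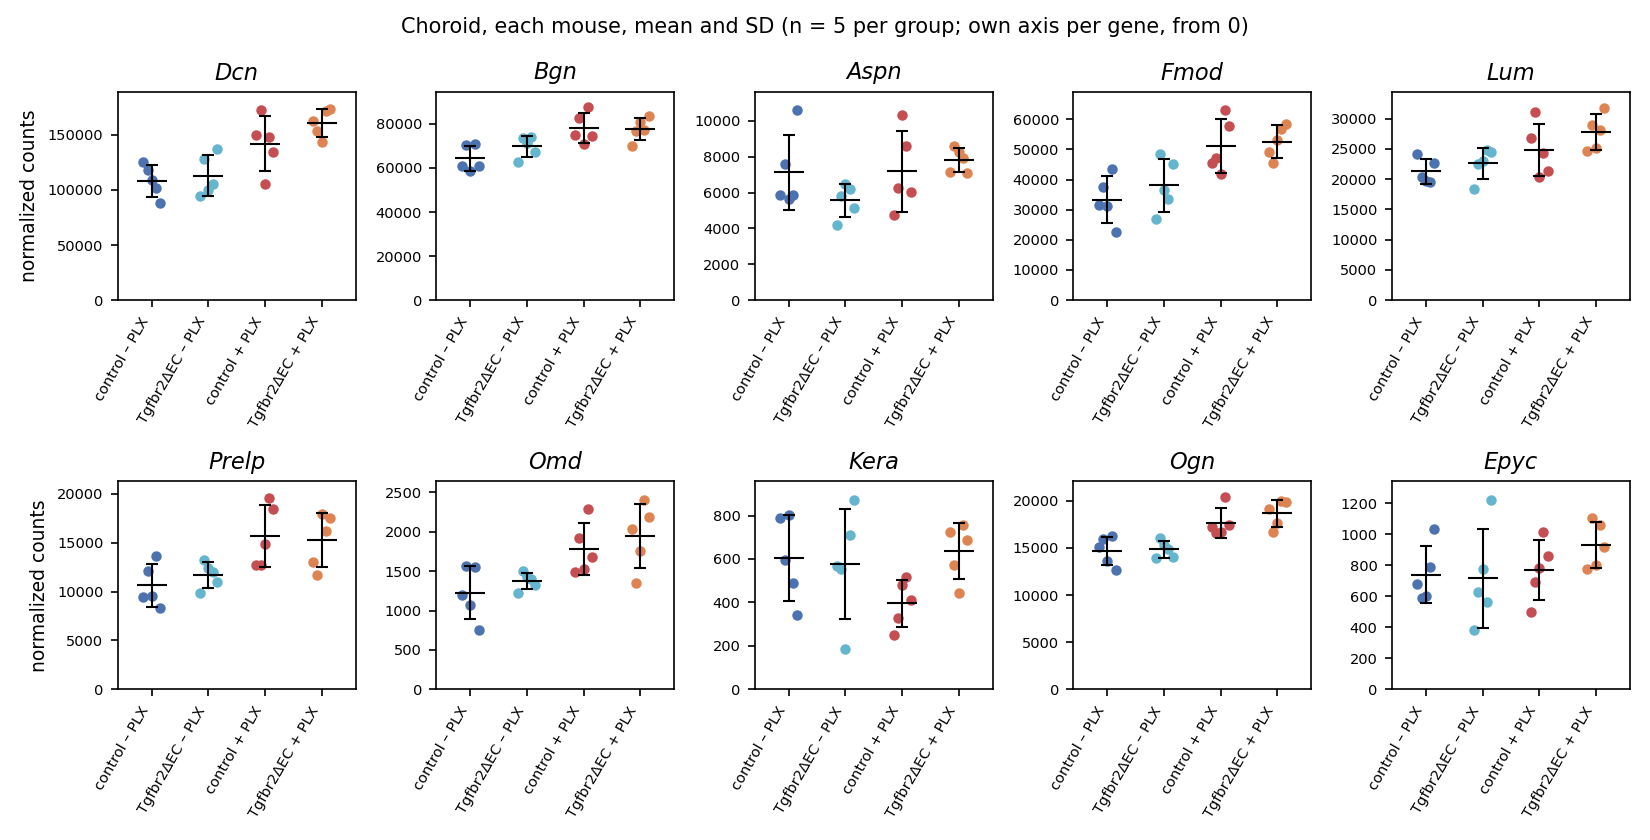
Normalized counts of the 10 SLRP genes in choroid by group, with 1 point per mouse and the mean ± SD of 5 mice in black (each gene has its own axis from 0). The + PLX groups (red and orange) lie above the – PLX groups (blue) without overlap for *Ogn*, between 16622 and 20432 against 12709 to 16226, whereas *Kera* and *Epyc* overlap throughout.

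*Lum*, *Aspn*, *Epyc* and *Kera* did not pass the test over both genotypes. Lumican missed the threshold (log2 difference 0.25 ± 0.08, SE, adjusted p = 0.0666 by limma with Benjamini-Hochberg adjustment), with a range of 18322 to 24847 normalized counts in the 10 – PLX choroids and 20379 to 31765 in the 10 + PLX choroids. Without mouse 13 or without mouse 15 it passed, at an adjusted p of 0.0313 and 0.0428. Epiphycan, a dermatan sulfate proteoglycan known from growth cartilage, ranged from 385 to 1223 without and from 496 to 1101 with PLX, and its log2 difference was 0.26 ± 0.17 (SE, adjusted p = 0.447 by limma).

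Asporin carries an aspartate-rich end and no chondroitin chain. *Aspn* was at 5879, 7616, 5658, 5845 and 10636 in control – PLX and 4728, 6239.6, 10327, 8599 and 6025 in control + PLX choroids. In *Tgfbr2ΔEC* mice it was at 4177, 5829, 6464, 6223 and 5139.6 without and 7125, 8620.5, 8241, 7944 and 7113 with PLX. The diets did not overlap in *Tgfbr2ΔEC* mice (log2 difference 0.50 ± 0.19, SE, adjusted p = 0.173 by limma, exact permutation p = 0.00794) and overlapped in control mice, with means of 7127 without and 7184 with PLX. The difference between these differences was 0.50 ± 0.27 (SE) and did not pass (adjusted p = 0.823 by limma with Benjamini-Hochberg adjustment).

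Keratocan, the keratan sulfate proteoglycan of the cornea, was the one gene of the 10 whose log2 difference lay below 0 over both genotypes (-0.15 ± 0.23, SE, adjusted p = 0.789 by limma). *Kera* was at 790.4, 596, 800.2, 492 and 341 in control – PLX and 252, 326, 479.6, 515 and 410.4 in control + PLX choroids. In *Tgfbr2ΔEC* choroids it was at 569.6, 555, 186, 712 and 869 without and 723, 573, 445, 759 and 688 with PLX. The values overlapped in both genotypes, and the difference between the genotypes in the effect of PLX, 0.86 ± 0.46 (SE), did not pass (adjusted p = 0.817 by limma with Benjamini-Hochberg adjustment).

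Within single genotypes fewer genes passed. In control mice 2 of 10 were called higher with PLX, *Fmod* (log2 difference 0.63 ± 0.17, SE, adjusted p = 0.0392 by limma with Benjamini-Hochberg adjustment) and *Prelp* (0.56 ± 0.16, adjusted p = 0.0479), against 0.601% of all genes. In *Tgfbr2ΔEC* mice 2 of 10 were called higher, *Dcn* (0.52 ± 0.14, adjusted p = 0.0348) and *Ogn* (0.33 ± 0.08, adjusted p = 0.028), against 0.559% of all genes. By values, 1 of 10 genes (*Ogn*) had every control + PLX choroid above every control – PLX choroid, against 0.936% of all genes. In *Tgfbr2ΔEC* mice 3 of 10 (*Dcn*, *Ogn* and *Aspn*) had every + PLX choroid above every – PLX choroid, against 1.36% of all genes. Each of the 4 single-genotype calls was lost in several fits that left out 1 mouse. *Fmod* was lost without mouse 1, 3, 5, 11, 14 or 15 (adjusted p = 0.0518 to 0.131), *Prelp* in 13 of 20 such fits (without mouse 1, 3, 5, 7, 8, 9, 10, 13, 14, 15, 16, 19 or 20, 0.0525 to 0.154), *Dcn* without mouse 6, 8, 9, 16, 17, 19 or 20 (0.0575 to 0.112) and *Ogn* without mouse 6, 9, 10, 16, 19 or 20 (0.0603 to 0.0846), while *Dcn* was gained in control mice without mouse 13 (0.0434). With all genes above 0 tested, none of these 4 calls held (adjusted p by limma 0.0648 for *Fmod*, 0.0721 for *Prelp*, 0.0746 for *Dcn* and 0.0505 for *Ogn*), and with the 2 groups alone *Fmod* (0.105) and *Prelp* (0.13) were lost, *Prelp* also with upper-quartile scaling or the score of photoreceptor genes as a covariate (0.0507 each). The photoreceptor genes moved with diet in *Tgfbr2ΔEC* choroids, their sum being 48629.9 to 138483 without and 8262 to 22202 with PLX, and with their score as a covariate *Dcn* (0.48 ± 0.17, adjusted p = 0.254) and *Ogn* (0.34 ± 0.11, adjusted p = 0.129) did not pass in these mice. The test of the difference between the genotypes called 0 of the 10 genes and 0 of all 23619 genes by limma, with 1552 of all genes at an unadjusted p under 0.05, so the sets of genes called in the genotypes are not shown to differ.

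**Figure D3:**
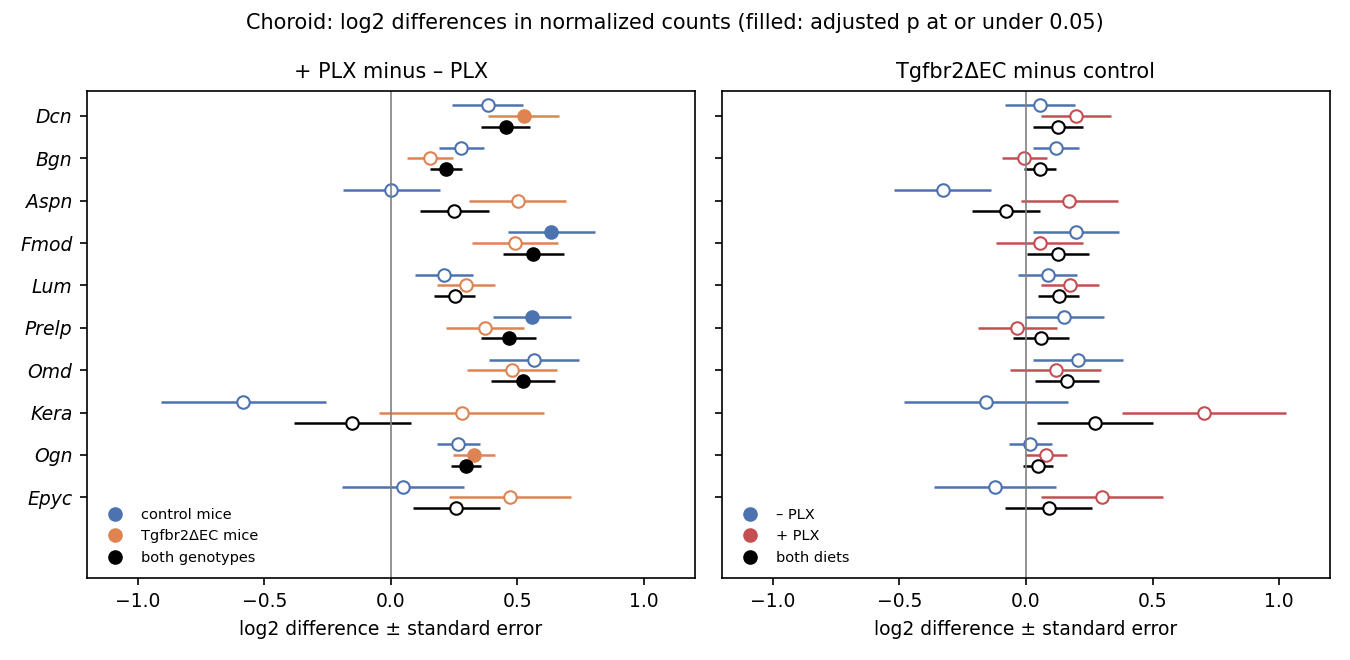
Log2 differences of the 10 genes in choroid ± standard error from limma, for PLX (left) and for genotype (right), filled where the adjusted p was at or under 0.05. On the left, 6 of the 10 differences over both genotypes (black) are filled and 9 lie above 0, and on the right none is filled.

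Markers of other cells were counted beside the SLRPs, against 2.07% of all genes called higher and 5.06% called lower with PLX. Of 13 MP markers, 12 were called lower in choroid, and their summed level was 37644 to 46058 normalized counts in the – PLX choroids and 8815 to 13929.6 in the + PLX choroids. The median log2 differences with PLX over the markers of other cells were 0.285 for sclera and tendon fibroblasts (5 of 10 called higher), 0.215 for fibroblasts by genes outside the matrix (1 of 10), 0.231 for endothelium (3 of 8), 0.195 for pericytes and smooth muscle (2 of 7), 0.223 for RPE (0 of 8), 0.14 for melanocytes (0 of 7) and 0.011 for skeletal muscle (0 of 9). The medians were 0.158 for Müller glia (0 of 6 higher, 1 lower), 0.189 for astrocytes and optic nerve (0 of 5) and -0.326 for cornea (0 of 7), a list that holds *Kera*. The Müller glia list shares *Rlbp1* with the RPE list, and its sum was 113153 to 174771 in choroid against 67302 to 102375 in retina, so that it does not mark Müller glia alone in choroid. Summed cornea genes were 75239 to 135826 in the – PLX and 87683 to 152992 in the + PLX choroids, a sum set by the most abundant genes of the list. The mean log2 level per cornea gene was 7.63 ± 1.03 in control – PLX and 6.61 ± 0.736 in control + PLX choroids. In *Tgfbr2ΔEC* choroids it was 6.89 ± 0.594 without and 6.12 ± 0.363 with PLX (SD, n = 5 each), so that it was lower with PLX in both genotypes. The sclera and tendon list holds *Col1a1*, *Col1a2*, *Comp* and *Chad*, which are matrix genes as well. Retinal RNA in the choroids also differed between groups. The summed photoreceptor genes were 4014 to 28319.8 in control – PLX, 48629.9 to 138483 in *Tgfbr2ΔEC* – PLX, 4495 to 134533 in control + PLX, where mouse 15 was the highest, and 8262 to 22202 in *Tgfbr2ΔEC* + PLX choroids. With the photoreceptor score as a covariate, 5 of the 10 genes were called (without *Bgn*), the median of the 10 was 0.32, and 300 of all 23619 genes were called higher in place of 489. Without mouse 13 or without mouse 15, 7 of the 10 were called, with 576 and 485 of all genes called higher. With each library scaled to the same total, 6 of the 10 were called, with a median of 0.27, and 451 of all genes. The part of these other cells in the rise of the SLRPs was not tested further.

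Of the 8 other SLRP genes, 2 were called higher with PLX in choroid, against 2.07% of all genes, and 0 lower. *Chad* differed by 0.68 ± 0.20 (log2, SE, adjusted p = 0.0367 by limma with Benjamini-Hochberg adjustment) and *Ecm2*, the neighbour of *Aspn*, by 0.40 ± 0.10 (adjusted p = 0.0103). *Tsku* (0.25), *Podn* (0.004), *Podnl1* (0.006), *Chadl* (-0.001) and *Nyx* (-0.145) did not pass, and opticin (*Optc*), a SLRP of the vitreous made in the ciliary body, had a log2 difference of -0.73 ± 0.40 (adjusted p = 0.335). The median over the 8 was 0.005.

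Counts over the related lists stand against 2.07% of all genes called higher and 5.06% called lower with PLX in choroid. Of 17 fibrillar collagens and partners, 2 were called higher and 0 lower, with a median of 0.08. *Col12a1*, a collagen at the surface of fibrils (0.47 ± 0.09, log2 ± SE, adjusted p = 0.001 by limma with Benjamini-Hochberg adjustment), and *Comp*, which joins collagens and SLRPs (0.65 ± 0.17, adjusted p = 0.0199), were the pair that rose. The chains of the main fibril collagens, named after their values were seen, had log2 differences of 0.11 ± 0.10 (*Col1a1*), 0.08 ± 0.08 (*Col1a2*) and -0.23 ± 0.16 (*Col3a1*), and none passed. Among collagen crosslinking and processing genes, 1 of 16 was called, *Plod1*, a lysyl hydroxylase, which fell by 0.21 ± 0.06 (adjusted p = 0.036).

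Among 22 enzymes that build chondroitin and dermatan sulfate, 3 were called higher and 0 lower. These were *Chpf* (0.30 ± 0.06, log2 ± SE, adjusted p = 0.000824 by limma with Benjamini-Hochberg adjustment) and *Chsy3* (0.43 ± 0.12, adjusted p = 0.0291), which lengthen the chain, and *Dsel* (0.22 ± 0.06, adjusted p = 0.032), a dermatan sulfate epimerase. Of 9 keratan sulfate and tyrosine sulfation genes 0 were called, the lowest adjusted p by limma being 0.0539 (*B3gnt7*, with an unadjusted p under 0.05 for 2 of the 9 and for 4551 of the 23619 genes). Of 10 proteases, *Mmp9* was called lower, having fallen by 0.51 ± 0.15 (adjusted p = 0.0463). Among 21 receptors and ligands, 2 were called higher and 5 lower. Those lower were the complement genes *C1qa* (-3.40), *C1qb* (-2.60) and *C1qc* (-3.04), which also stand in the MP list, the biglycan receptor *Tlr2* (-0.76 ± 0.07, adjusted p = 4.25e-08) and *Tgfb1*. The other 3, named after their values were seen, were *Tgfb1*, the ligand of the deleted receptor (-0.27 ± 0.08, adjusted p = 0.0388), *Ccn2*, a growth factor that decorin binds (0.63 ± 0.18, adjusted p = 0.0418), and the Wnt co-receptor *Lrp6* (0.31 ± 0.09, adjusted p = 0.0323). In retina, *Tlr2* (-2.58, adjusted p = 0.000421 by limma) and *Tgfb1* (-0.98, adjusted p = 0.0431) were called lower with PLX too. The part of MP loss in their fall was not tested.

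**Figure D4:**
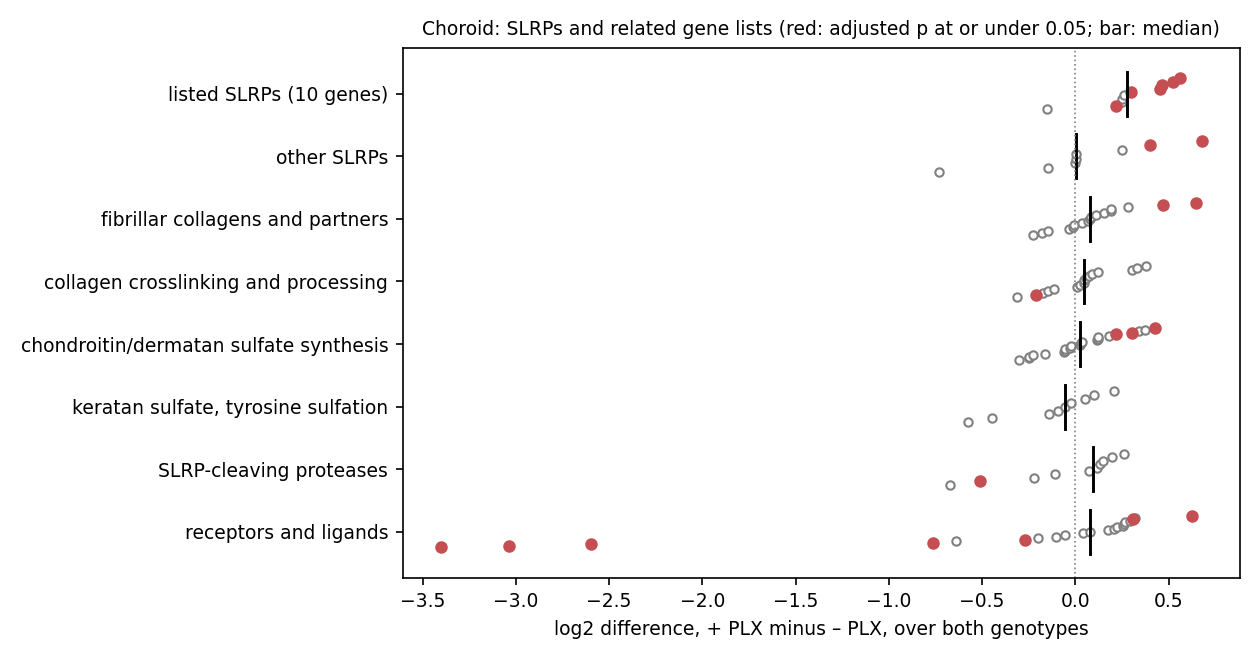
Log2 difference with PLX over both genotypes in choroid, 1 point per gene, for the 10 SLRP genes and 7 related lists, red where the adjusted p was at or under 0.05, with a bar at the list's median. The 10 SLRPs have a median of 0.28 and 6 red points, and the 17 collagens and partners a median of 0.08 and 2 red points.

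Loss of endothelial *Tgfbr2* called none of the 10 genes. Over both diets, 0 of 10 passed by limma, against 0.00847% of all genes (2 genes), and the exact permutation p was under 0.05 for 0 of 10. The log2 differences between *Tgfbr2ΔEC* and control choroids ran from -0.08 (*Aspn*) to 0.27 (*Kera*) with a median of 0.107, and 9 of 10 were above 0. The share of all genes above 0 was not counted, so no result is read from these signs. The lowest unadjusted p was 0.128 (*Lum*), while 1558 of all genes had one under 0.05. Without PLX, 0 of 10 passed by limma, against 0.00423% of all genes (1 gene), the lowest unadjusted p was 0.0999 (*Aspn*), with 2184 of all genes under 0.05, and the exact permutation p was under 0.05 for 0 of 10. Leaving out mouse 15 raised the genes called without PLX from 1 to 411 and over both diets from 2 to 77, with 0 of the 10 SLRPs among them in either case. Mouse 15 was a control + PLX mouse and entered the comparison without PLX through the shared estimate of spread. The photoreceptor sums without PLX were 4014 to 28319.8 in control and 48629.9 to 138483 in *Tgfbr2ΔEC* choroids, and the part of retinal RNA in these calls was not tested. With PLX, 0 of 10 passed by limma, as against 1 of all genes and 889 at an unadjusted p under 0.05. *Kera* (0.70 ± 0.33, SE, unadjusted p = 0.0426 and adjusted p = 1 by limma) was the one of the 10 with an exact permutation p under 0.05 (0.0238). For *Dcn*, the difference over both diets was 0.13 ± 0.10, and for *Bgn* 0.06 ± 0.06.

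In retina, where *Kera* and *Epyc* did not reach the minimum mean, the other 8 genes were tested and 0 passed in any comparison by limma. Over both genotypes 7 of the 8 were lower with PLX in value, with a median log2 difference of -0.51. That median leans on *Lum*, which was at or under 3 reads in 17 of 20 retinas. The share of all genes lower in value was not counted, while 1.08% of all genes were called lower. By unadjusted p, 4 of the 8 (*Bgn*, *Fmod*, *Prelp* and *Ogn*) and 1459 of all 23243 genes were under 0.05. *Bgn* was at 109 normalized counts without and 72.9 with PLX (log2 difference -0.50 ± 0.20, SE, adjusted p = 0.554 by limma, exact permutation p = 0.018), *Fmod* at 130.2 and 68.25 (-0.76 ± 0.31, adjusted p = 0.596 by limma, exact permutation p = 0.0397) and *Prelp* at 849 and 699 (-0.27 ± 0.12, adjusted p = 0.727 by limma, exact permutation p = 0.0457). *Ogn* was at 42.7 and 22.2 (-0.74 ± 0.34, adjusted p = 0.754 by limma, exact permutation p = 0.0564). The largest difference in value was that of *Dcn*, at 18.1 and 9.46 (-1.03 ± 0.57, adjusted p = 0.893 by limma, exact permutation p = 0.108), and *Lum* (-0.515), *Aspn* (-0.25) and *Omd* (0.13) made up the rest. Marker lists in retina did not all move the same way. All 13 MP genes were called lower, while 0 genes were called in the lists of the choroid and of the front of the eye, with medians of -1.031 for cornea (5 tested, *Kera* not among them), -0.428 for melanocytes (7), -0.166 for fibroblasts by genes outside the matrix (8), -0.053 for fibrillar collagens and partners (16), 0.089 for sclera and tendon (8) and 0.395 for RPE (8). Summed melanocyte genes were 177.5 to 1507 in the – PLX and 111.1 to 615 in the + PLX retinas, and summed cornea genes 1215 to 9831 and 794 to 4776. Their part in the lower retinal SLRP values was not tested. The diets overlapped for *Bgn*, *Fmod* and *Prelp*, with 3 of the 10 + PLX retinas below every – PLX retina for *Bgn* and for *Fmod* and 0 for *Prelp*. These retinal levels are small beside those of the choroid, and mouse 4, the highest for *Fmod* (351) and *Ogn* (115), and mouse 5, the highest for *Bgn* (216), were both control – PLX mice.

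Within the groups, the SLRPs did not vary as one block between choroids. With the group means removed, 12 of 45 pairs of genes were correlated over the 20 choroids after Benjamini-Hochberg adjustment over 95 relations, all positively, and r ran from -0.46 to 0.90 with a median of 0.18. The permutations shuffled the deviations over all 20 choroids and did not allow for the removed group means, so that their p-values can be somewhat too small. All 10 pairs among *Bgn*, *Fmod*, *Prelp*, *Omd* and *Ogn* were among the 12. The highest was *Omd* with *Ogn* (Pearson's r = 0.90, permutation p = 1e-05, the smallest that 100000 resamples can give, adjusted p = 0.00095, Spearman's rho = 0.87, permutation p = 1e-05, and r = 0.86 without the 2 choroids farthest from the median). *Fmod* with *Prelp* followed (r = 0.78, permutation p = 6e-05, adjusted p = 0.0019, rho = 0.81, permutation p = 6e-05, r = 0.71 without 2 choroids). The other 2 of the 12 were *Dcn* with *Lum* (r = 0.62, permutation p = 0.00375, adjusted p = 0.0223, rho = 0.53, permutation p = 0.0176, r = 0.67 without 2 choroids) and *Dcn* with *Fmod* (r = 0.57, permutation p = 0.00956, adjusted p = 0.0478, rho = 0.50, permutation p = 0.0257, r = 0.40 without 2 choroids). By rho, neither of these passed, with adjusted p-values of 0.0798 and 0.106. The relations of *Aspn* with *Dcn* (r = -0.46, permutation p = 0.0445, adjusted p = 0.157, rho = -0.33, permutation p = 0.16, r = -0.06 without 2 choroids) and with *Epyc* (r = 0.51, permutation p = 0.0205, adjusted p = 0.0779, rho = 0.54, permutation p = 0.0164, r = 0.48 without 2 choroids) did not pass.

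**Figure D5:**
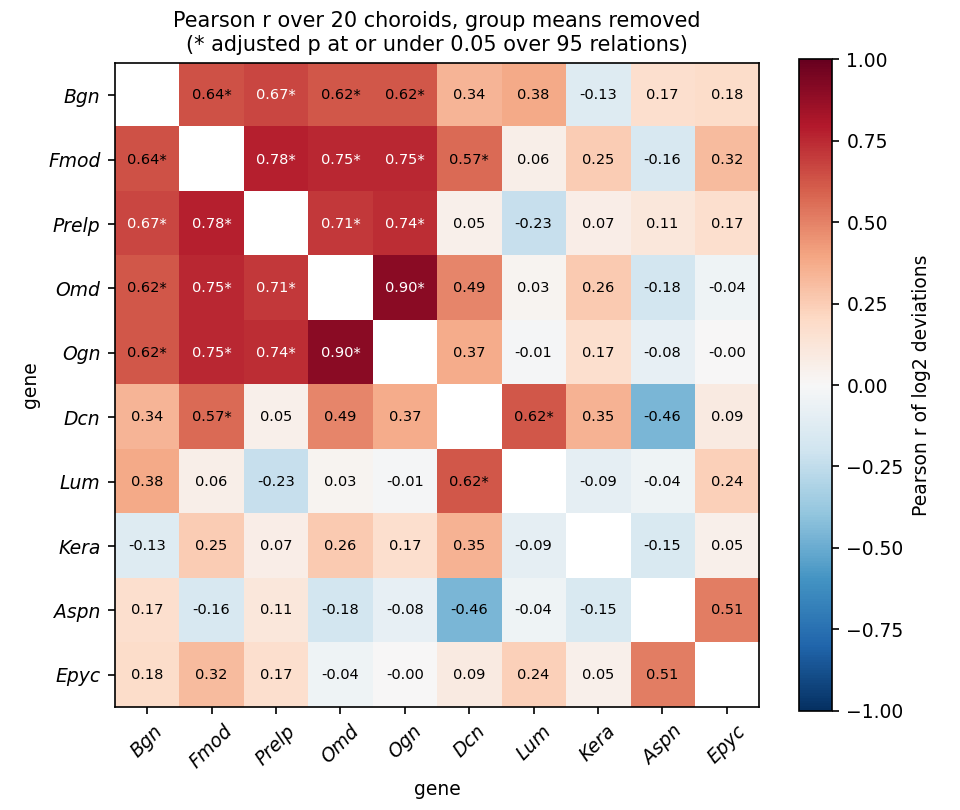
Pearson's r between pairs of the 10 genes over 20 choroids after removal of group means, with an asterisk where the adjusted p was at or under 0.05 over 95 relations. *Bgn*, *Fmod*, *Prelp*, *Omd* and *Ogn* form a block with r between 0.62 and 0.90, while *Lum* and *Dcn* pair at 0.62 and *Kera*, *Aspn* and *Epyc* carry no asterisk.

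The same within-group deviations were set against marker scores, which carry the names of their gene lists and were not tested as marks of 1 cell type each. The sclera and tendon score, whose 10 genes include none of the SLRPs followed here, was correlated with 5 of 10 genes after adjustment, *Fmod* (r = 0.78, permutation p = 8e-05, adjusted p = 0.0019, rho = 0.72, permutation p = 0.00044, r = 0.79 without 2 choroids), *Omd* (r = 0.75, permutation p = 0.00017, rho = 0.73, r = 0.70 without 2), *Dcn* (r = 0.70, permutation p = 0.00061, rho = 0.72, r = 0.66 without 2), *Ogn* (r = 0.68, permutation p = 0.00074, rho = 0.60, r = 0.53 without 2) and *Bgn* (r = 0.60, permutation p = 0.00575, rho = 0.61, r = 0.57 without 2). The permutation p-values of these 4 rho were 0.00044, 0.00049, 0.00664 and 0.00535. The sclera and tendon score does hold *Chad*, another SLRP, and the matrix genes *Col1a1*, *Col1a2* and *Comp*. The share of all genes correlated with the marker scores was not counted. The melanocyte score was correlated with *Dcn* (r = 0.68, permutation p = 0.001, adjusted p = 0.00864, rho = 0.67, permutation p = 0.00159, r = 0.61 without 2 choroids) and *Lum* (r = 0.67, permutation p = 0.00136, adjusted p = 0.0108, rho = 0.65, permutation p = 0.00253, r = 0.62 without 2 choroids). By r, 0 of the 10 genes passed with the photoreceptor, RPE or skeletal muscle score, while by rho *Dcn* passed with the RPE score (rho = 0.59, permutation p = 0.00739, adjusted p = 0.039, against r = 0.55, permutation p = 0.0122, adjusted p = 0.0553, and r = 0.49 without 2). The choroids share a dissection step, and its part in these relations was not tested.

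Among 17587 genes with a mean of at least 10, those whose deviations were most like each SLRP over the 20 choroids were listed as a description. For *Dcn* they were *Serpinf1* (r = 0.94), *Igfbp6* (0.93) and *Igsf8* (0.89), and for *Lum* *Itm2a* (0.90), *Ackr4* (0.89) and *Ctsk* (0.88). *Fmod* was nearest to *Fam221b* (0.93), *Armh4* (0.91) and the SLRP *Ecm2* (0.90). For *Prelp* they were chondroadherin (*Chad*, 0.90), also a SLRP, *Tmem255b* (0.87) and *Reck* (0.87). *Ogn* was nearest to *Sf3a2* (0.84), a splicing factor, then *Chad* (0.83) and *Hhip* (0.79), and *Omd* to *Col12a1* (0.87), *Hhip* (0.86) and *Ecrg4* (0.83). *Aspn* went with *Cthrc1* (0.91), *Postn* (0.90) and *Adamts14* (0.89), and *Bgn* with *Clec11a* (0.86), *Ifi27* (0.84) and *Gm22009* (0.82). *Kera* was nearest to *Gm30984* (0.86), *Gm12416* (0.78) and *Cfap96* (0.77), and *Epyc* to *Ccng2*, *Duoxa1* and *Fbxo32* (0.77 each).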

How the data were processed

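The authors quantified single reads with Salmon 1.10.1 against GRCm39, imported them with tximport and deposited DESeq2 1.36.0 normalized counts (a signal in scaled estimated reads per gene, not whole counts), 1 table of 54307 genes and 40 libraries. Whether the scaling used 1 factor per library or also differed by gene was not tested. Totals were 24718469 to 25956180 in choroid and 22256892 to 24507335 in retina. Genes whose mean reached 1 entered limma 3.58.1 (R 4.3.3, trended variance) on log2(value + 1), which understates changes of low genes. All 4 groups of a tissue entered 1 fit, both tissues and 8 groups the tissue fit, and p-values were Benjamini-Hochberg adjusted over all genes, with a threshold of 0.05. Single genes were also tested by exact two-sided permutation (scipy 1.17.1), whose smallest p was 0.00794 between 2 groups. A level at or under 3 reads was treated as the floor, for counting error only. The study's covariates, sex and an estimated neuronal percentage, were not used. Stand-in scores were tried as alternatives. Lengths, positions and promoters came from GENCODE release 39 and GRCm39, which matched 53700 genes. Members, lists and tests were chosen with earlier results of these data known. The text names the 10 members, the other 8 SLRP genes, at most 4 genes per list by lowest p unless stated, and the 3 nearest genes by r. The scripts were tested on simulated data. Stainings and cell culture data were not analysed here.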

Additional observations from a re-analysis of the deposited data

Results flagged for a closer look

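In 11 of 75 groups of 5 mice, 1 mouse stood apart from the other 4, its gap to the nearest mouse taking more than 0.71 of the group's range. Chance gives this in about 1 of 20 groups of continuous values, a rate that does not apply to 4 of the 11, in which 1 value lay above 0 and the rest at 0. Of the 11, 1 was in choroid, where *Ogn* in control + PLX mouse 14 was at 20432 against 17400.5 for the next mouse (0.796 of the range), and *Ogn* did not overlap between the diets with or without that mouse, since it was the highest. The others were in retina, at levels that were low beside those of the choroid.

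*Dcn* was at 72.99 against 17.96 in *Tgfbr2ΔEC* – PLX mouse 6 (0.779) and at 49.0 against 9.33 in *Tgfbr2ΔEC* + PLX mouse 18 (0.84). *Lum* was at 7.16 against 1.02 in *Tgfbr2ΔEC* – PLX mouse 9 (0.857) and at 8.77 against 0 in mouse 18 (1.0), and *Ogn* at 85.5 against 32.9 in mouse 9 (0.744). *Prelp* was lowest in *Tgfbr2ΔEC* – PLX mouse 10, at 602 against 851 (0.764), and highest in *Tgfbr2ΔEC* + PLX mouse 17, at 889 against 641 (0.9). *Kera* at 4.67 (1.0) and *Epyc* at 0.975 (1.0) in *Tgfbr2ΔEC* – PLX mouse 8, and *Epyc* at 0.878 (1.0) in control + PLX mouse 11, were single values above 0 in groups listed at 0.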

How the results depend on the processing

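Over both genotypes, 5 to 7 of the 10 genes were called higher with PLX in choroid in fits that left out 1 mouse each (336 of all genes without mouse 6 to 772 without mouse 12, against 489 with all mice), and 5 with a pseudocount of 5, all genes above 0 tested, a sex score or the photoreceptor score (475, 392, 448 and 300 of all genes), where *Bgn* was lost (adjusted p = 0.0689, 0.105, 0.0551 and 0.0893 by limma). *Dcn*, *Fmod*, *Ogn*, *Omd* and *Prelp* were called in all 20 fits without 1 mouse and all 9 other settings. The counts within a genotype moved more. The 2 genes called in control mice became 0 with all genes above 0 tested or with the 2 groups alone, 1 with upper-quartile scaling or the photoreceptor score, and 0 to 2 without 1 mouse. The 2 in *Tgfbr2ΔEC* mice became 1 with a pseudocount of 5, 0 with all genes tested or the photoreceptor score, and 0 to 2 without 1 mouse. The cause was not tested. No value changed sign among those called, and genotype and retina counts remained 0 in all settings run.

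With the mouse number as a replicate block, the tissue comparison called 10 genes, *Kera* and *Epyc* among them although they entered through choroid alone, with adjusted p-values of 8.48e-25 to 6.67e-19 by limma, and no call changed. Whether equal numbers pair the libraries was read from their names. Deviations from group means over 15687 genes had r from -0.197 to 0.354 (median 0.181) in the 20 pairs, 14 of them over 0.1, and 14 choroids were most like the retina of their own number among those of their group, a hint from the data and not the design. No paired analysis was possible within a tissue because the groups compared hold different mice. With 5 mice per group, and nothing on depth beyond estimated reads, levels of *Lum*, *Omd*, *Kera* and *Epyc* in retina were at the limit of detection.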
